A study of Mus musculus with 2 samples.

Results

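The 9 genes described here, Nes, Pax6, Mtap2, Neurog2, Neurod1, Olig2, Otx2, Tubb3 and Zic2, were taken from a fixed list of neural progenitor and neuron genes, and they are 9 of 22359 protein-coding genes with a transcription start site (TSS) on the nuclear chromosomes of the annotation used. All 9 were found in it. The rule for the list uses no measured value, but the genes were proposed with earlier results of these data known. Chromatin of wild type mouse embryonic stem cells (mESCs; line E14.wt, background 129P2/OlaHsd, passage 26) was precipitated with an antibody against Msl1 in 1 library and against Nsl1 in the other. Both libraries come from untreated cells of the same genotype, and the groups differ in the antibody, in the library kit (NEXTFlex for Msl1, NEBNext for Nsl1), in the read length, in the fragment length (210 and 135 bases) and in the share of distinct reads (81.7% and 95.4%). The cells were kept on CD1 feeder cells and, to free them of feeders, passaged once without them on gelatine. ChIP-seq holds no expression, and the identity of the cells was not checked against RNA markers. Because there is 1 library per antibody, the values have no replicate check and no p-value is given, and every interval is a 95% interval for counting error only. The antibody cannot be told apart from these other differences.

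Msl1 and Nsl1 are scaffold subunits of 2 histone acetyltransferase complexes, MSL and NSL, which share the catalytic subunit Mof, an enzyme that acetylates histone H4. Embryonic stem cells can form all embryonic lineages, and most genes that direct neural fate are silent or low in them until differentiation starts. Many such genes have CpG-rich starts that carry both activating and repressive histone marks in these cells. The 9 genes cover successive steps of neural development. Otx2, Zic2, Pax6 and Nes belong to the neuroepithelium and its progenitors, Neurog2, Neurod1 and Olig2 are basic helix-loop-helix factors that commit progenitors to neurons or to motor neurons and oligodendrocytes, and Mtap2 and Tubb3 encode parts of the microtubule cytoskeleton of neurons.

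The 250 bases before 5 starts are given from 5′ to 3′ in the direction of the gene, on mm9, with every CG dinucleotide in capitals. They are shown because Neurog2, Zic2 and the upstream start of Mtap2 had high Msl1 ratios and the internal start of Mtap2 a low one, and because the most upstream TSS of Otx2, the one shown, lies 131 bases before the Otx2 TSS at which a low Nsl1 ratio is described below. The Zic2 stretch likewise precedes its most upstream TSS. None of the 5 stretches overlaps an annotated exon.
Neurog2, chr3:127335804-127336053, strand +: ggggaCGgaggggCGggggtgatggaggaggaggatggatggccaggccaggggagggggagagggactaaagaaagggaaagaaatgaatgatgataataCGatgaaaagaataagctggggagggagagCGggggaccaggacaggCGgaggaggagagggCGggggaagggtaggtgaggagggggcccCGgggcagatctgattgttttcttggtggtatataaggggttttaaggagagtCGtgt
Zic2, chr14:122874354-122874603, strand +: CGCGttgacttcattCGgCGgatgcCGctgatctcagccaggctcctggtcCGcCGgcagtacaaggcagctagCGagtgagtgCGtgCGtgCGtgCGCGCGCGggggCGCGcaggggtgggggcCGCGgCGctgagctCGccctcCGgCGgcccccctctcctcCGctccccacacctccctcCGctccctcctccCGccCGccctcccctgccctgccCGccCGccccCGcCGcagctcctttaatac
Otx2, chr14:49287320-49287569, strand -: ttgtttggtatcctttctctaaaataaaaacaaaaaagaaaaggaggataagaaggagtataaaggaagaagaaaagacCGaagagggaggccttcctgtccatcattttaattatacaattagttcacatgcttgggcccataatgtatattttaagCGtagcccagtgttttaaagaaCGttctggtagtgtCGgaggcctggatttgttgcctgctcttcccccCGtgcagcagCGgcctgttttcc
Mtap2, upstream start, chr1:66221597-66221846, strand +: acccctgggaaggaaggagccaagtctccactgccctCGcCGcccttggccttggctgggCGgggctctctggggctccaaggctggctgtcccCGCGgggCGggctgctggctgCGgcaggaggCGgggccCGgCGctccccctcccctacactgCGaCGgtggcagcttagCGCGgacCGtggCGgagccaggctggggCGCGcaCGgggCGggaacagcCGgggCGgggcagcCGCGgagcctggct
Mtap2, internal start, chr1:66368043-66368292, strand +: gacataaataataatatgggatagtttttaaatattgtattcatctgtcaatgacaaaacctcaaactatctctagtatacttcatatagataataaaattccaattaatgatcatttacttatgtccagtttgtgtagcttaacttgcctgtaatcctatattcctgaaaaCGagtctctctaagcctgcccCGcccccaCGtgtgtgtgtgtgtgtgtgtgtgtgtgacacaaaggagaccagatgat

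The stretch before Zic2 held 31 CG dinucleotides and that before the upstream Mtap2 start 24. Those before Neurog2, Otx2 and the internal Mtap2 start held 8, 6 and 3. The median over the same 250 bases of all 22359 TSSs was 9. Zic2 and the upstream Mtap2 start were thus CG-rich in this stretch, Neurog2 was close to the median, and the internal Mtap2 start had few.

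Msl1 reads were gathered at most of the 9 genes and Nsl1 reads at few of them. The measure was the number of distinct reads within 500 bases of the TSS divided by the reads per kb of its surroundings, the stretches 5 to 50 kb away on either side (called the ratio below), and a ratio of at least 2 was counted as enriched. Each gene was measured at the TSS of its transcript with the longest coding sequence. By this measure Msl1 was enriched at 7 of the 9 genes, where 45.8% of all protein-coding TSSs reached the same value, and Nsl1 at 2 of the 9, where the share over all TSSs was 41.2%. The 2 Nsl1 calls, Neurod1 and Mtap2, were lost in several other settings, both of them with reads within 1000 bases or with a shift of 100 bases. Msl1 without Nsl1 was found at 6 of the 9 genes (15.5% of all TSSs), Nsl1 without Msl1 at 1 (10.9% of all TSSs), both at Neurod1, and neither at Olig2. For Msl1 the 9 genes had a median ratio of 2.25, beside 1.84 over all TSSs, and for Nsl1 a median of 1.36, beside 1.70. Several of these values lie close to 2 and their intervals reach across it, as given for each gene. The local level itself differed between members, from 4.64 reads per kb at Mtap2 to 16.5 at Nes for Msl1 and from 8.26 at Mtap2 to 16.4 at Nes for Nsl1. Set against the whole genome in place of the surroundings, the Msl1 ratio rose to 5.65 at Nes, 5.25 at Zic2, 3.94 at Tubb3 and 3.02 at Pax6. The Nsl1 ratio rose to 2.26 at both Nes and Tubb3, and the Msl1 ratio of Mtap2 was 0.657.

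**Figure D1:**
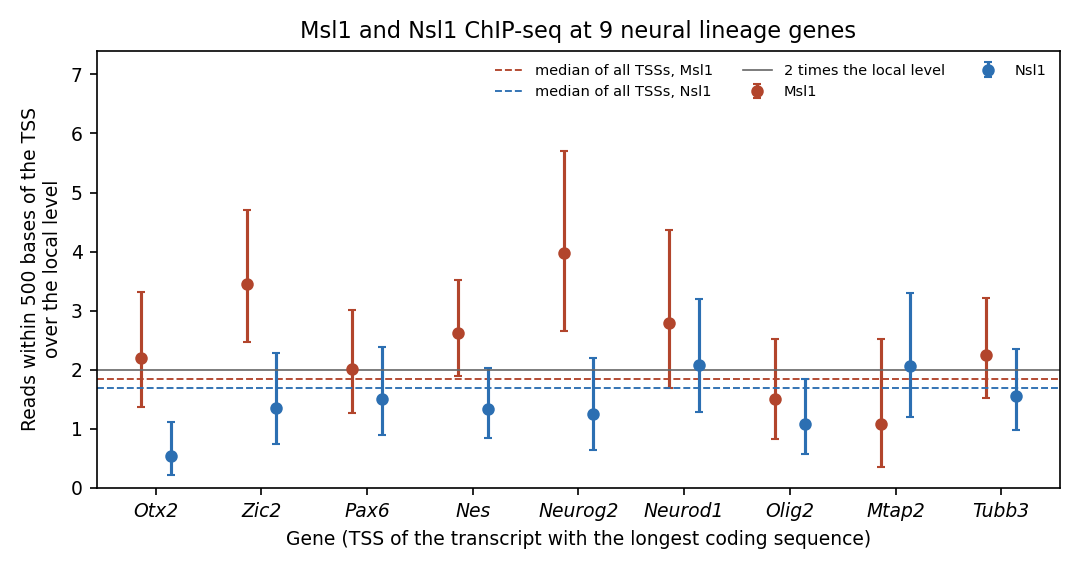
Reads within 500 bases of the TSS over the local level (vertical axis, a ratio without unit) for the 9 genes (horizontal axis) in the Msl1 library (red) and the Nsl1 library (blue). Points are single libraries, bars are 95% counting intervals, the solid line marks a ratio of 2, and the dashed lines mark the medians of all TSSs, 1.84 for Msl1 and 1.70 for Nsl1. Msl1 lies above Nsl1 at every gene except Mtap2.

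Of the genes of the neuroepithelium and its progenitors, Zic2, a zinc finger factor of the early neural plate (ENSMUSG00000061524.7, chr14, TSS at 122874657, plus strand), had the highest ratio. The Msl1 library held 40 reads within 500 bases of its TSS, a ratio of 3.45 (2.46 to 4.70), and the Nsl1 library 14 reads, a ratio of 1.36 (0.742 to 2.28). The Msl1 and Nsl1 intervals did not overlap. The nearest annotated start of another gene, that of the noncoding RNA 2610035F20Rik, lies 1856 bases before the Zic2 TSS on the opposite strand. It falls inside the window of 2 kb used below. Nes (ENSMUSG00000004891.10, chr3, TSS at 87775015, plus strand) encodes nestin, the intermediate filament protein of neural progenitors. It had 43 Msl1 reads and a ratio of 2.61 (1.89 to 3.52), with 22 Nsl1 reads and a ratio of 1.34 (0.840 to 2.03). The Msl1 interval thus began just below the end of the Nsl1 interval.

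Otx2, a homeobox factor of the anterior epiblast and the forebrain and midbrain (ENSMUSG00000021848.9, chr14, TSS at 49287188, minus strand), had 22 Msl1 reads and a ratio of 2.19 (1.37 to 3.32). Its Nsl1 ratio of 0.540 (0.217 to 1.11), from 7 reads, was the lowest of the 9, and 6.33% of all TSSs had a lower one. The 2 intervals did not overlap. All 7 of these reads lay before the TSS. In the first 500 bases after the TSS the Nsl1 library held 0 reads (0 to 0.569 times the local level), where the local level corresponds to 6.48. In this same stretch Msl1 had 15 reads and a level of 2.99 (1.67 to 4.93), a count matched within 5 kb only by the bin from 4500 to 5000 bases downstream. Within 1000 bases the Nsl1 ratio of Otx2 was 1.04. At its most upstream TSS the Nsl1 ratio was 0.927 (0.479 to 1.62) and the Msl1 ratio 1.78 (1.05 to 2.81). There the intervals overlapped and Msl1 was not enriched. Pax6, a paired-box factor of the neural tube and eye (ENSMUSG00000027168.12, chr2, TSS at 105509053, plus strand), was the member closest to the threshold for Msl1. It had 23 Msl1 reads and a ratio of 2.01 (1.27 to 3.01), and 18 Nsl1 reads and a ratio of 1.51 (0.896 to 2.39), so that the 2 libraries overlapped widely.

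Among the basic helix-loop-helix genes the 3 members differed. Neurog2, a proneural factor that starts neurogenesis (ENSMUSG00000027967.7, chr3, TSS at 127336054, plus strand), had the highest Msl1 ratio of the 9, 3.97 (2.66 to 5.71) from 29 reads, which was higher than at 89.9% of TSSs. Its Nsl1 ratio was 1.25 (0.648 to 2.19) from 12 reads, higher than at 31.9% of TSSs, and the 2 intervals did not overlap. Neurod1, which acts after the proneural factors in differentiating neurons (ENSMUSG00000034701.8, chr2, TSS at 79296908, minus strand), was the only member enriched in both libraries, and its Nsl1 ratio stayed at 2 or more in 4 of 8 other settings. Its Msl1 ratio was 2.80 (1.68 to 4.37) from 19 reads and its Nsl1 ratio 2.09 (1.29 to 3.19) from 21 reads. An annotated transcript of the next gene, Cerkl, starts 34 bases upstream on the same strand, so that reads at the 2 starts cannot be assigned to 1 gene. Olig2, a factor of motor neuron and oligodendrocyte progenitors (ENSMUSG00000039830.8, chr16, TSS at 91225795, plus strand), was enriched in neither library, with 14 Msl1 reads and a ratio of 1.5 (0.821 to 2.52) and 13 Nsl1 reads and a ratio of 1.08 (0.576 to 1.85).

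Of the cytoskeleton genes, Tubb3 encodes the beta-tubulin that marks young neurons (ENSMUSG00000062380.3, chr8, TSS at 125935324, plus strand). It had 30 Msl1 reads and a ratio of 2.25 (1.52 to 3.22), beside 22 Nsl1 reads and a ratio of 1.55 (0.972 to 2.35). Mtap2 encodes a microtubule-associated protein of dendrites (ENSMUSG00000015222.10, chr1) and was the only member with a higher Nsl1 than Msl1 ratio. At its TSS at 66368293 on the plus strand Msl1 had 5 reads and a ratio of 1.08 (0.350 to 2.51), the lowest of the 9, and Nsl1 17 reads and a ratio of 2.06 (1.20 to 3.30). This start lies inside the gene, and the order of the libraries was the opposite at the upstream start.

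**Figure D2:**
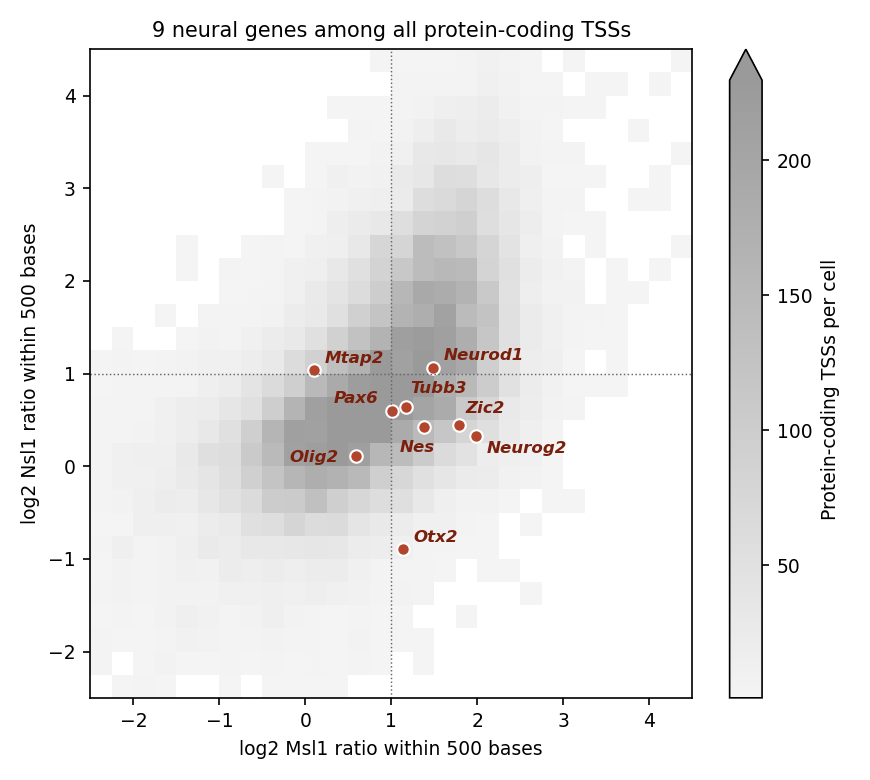
log2 Msl1 ratio (horizontal axis) against log2 Nsl1 ratio (vertical axis) within 500 bases of the TSS; grey cells count protein-coding TSSs and the red points are the 9 genes. Dotted lines mark a ratio of 2 in each library. Otx2 lies apart at the bottom, with Nsl1 0.540 beside Msl1 2.19, and Mtap2 is the member above the Nsl1 line and left of the Msl1 line.

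At Mtap2 and Pax6 the values depended on the TSS that was measured. The 9 genes have 70 annotated TSSs from 77 transcripts, and joining those within 500 bases of the next gives 32 groups. Msl1 reached a ratio of 2 at 36 of the 70 TSSs and in 15 of the 32 groups, which belong to 8 of the 9 genes. Over every annotated TSS of the protein-coding genes the share was 42.1%. Nsl1 reached it at 3 of the 70 TSSs, in 3 groups of 3 genes, where the share over all such TSSs was 36.6%. TSSs of 1 group share most of their reads and are not independent. A group was counted when any of its TSSs reached the ratio, and a gene when any of its groups did. No share over all genes was formed for groups or for genes counted in this way. Only the counts of single TSSs have a share beside them.

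The upstream group of Mtap2 holds 6 TSSs between 66221847 and 66222124, about 146 kb before the internal start. It had Msl1 ratios of 3.85 to 4.85 from 20 to 25 reads and Nsl1 ratios of 0.936 to 1.29. At its first TSS the intervals were 3.14 to 7.16 for Msl1, with 25 reads, and 0.643 to 2.30 for Nsl1, with 11 reads, and they did not overlap. The Msl1 ratios of this group were near that of Neurog2, with overlapping intervals, whereas the 8 other groups of Mtap2, among them the internal start, all had Msl1 ratios under 2. With the upstream start in place of the internal one, Mtap2 too would be counted with the genes enriched for Msl1 and not for Nsl1.

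Pax6 has 12 groups of TSSs, and Msl1 reached 2 in 4 of them. The highest values were not at the first start but in a group of 8 TSSs from 6213 to 7233 bases downstream of it, between 105515266 and 105516286, with Msl1 ratios of 2.05 to 3.57 from 23 to 40 reads and Nsl1 ratios of 1.09 to 1.52. The interval of the highest, 2.55 to 4.86, overlapped that of the first start, 1.27 to 3.01. Pax6os1, a transcript on the opposite strand, starts 1384 bases after the Pax6 TSS. Further along, the TSS 23587 bases downstream was the only Pax6 start with an Nsl1 ratio of at least 2, at 2.18, beside an Msl1 ratio of 1.98. Otx2 has 4 groups, and Msl1 reached 2 in all 4 and Nsl1 in none. At Otx2 the Msl1 ratio was highest at the starts inside the gene. It was 2.99 (1.98 to 4.32, 28 reads) at the TSS 4641 bases downstream, with an Nsl1 ratio of 1.02. At the one 5581 bases downstream it was 2.87 (1.89 to 4.17, 27 reads), with an Nsl1 ratio of 0.953. Both Msl1 intervals overlapped that of the TSS at 49287188, 1.37 to 3.32.

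**Figure D3:**
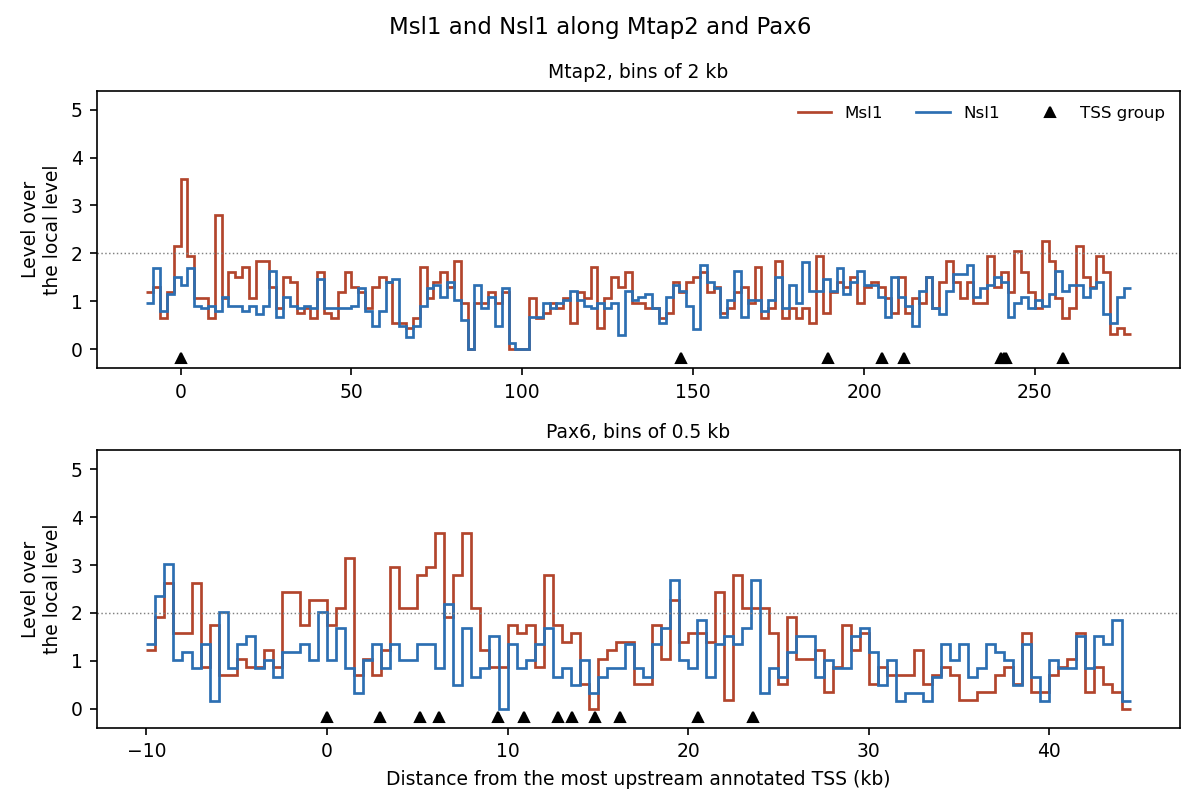
Level over the local level (vertical axis, a ratio without unit) of Msl1 (red) and Nsl1 (blue) along Mtap2 in 2 kb bins and Pax6 in 0.5 kb bins, against the distance in kb from the most upstream annotated TSS. Triangles mark the first TSS of each group and the dotted line a level of 2; the Msl1 level of Mtap2 is highest at the upstream start, and that of Pax6 is raised over the first part of the gene.

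The Msl1 reads of several members spread well past the TSS into the gene, and those of some lay before it as well. In the window from 500 to 2000 bases downstream the Msl1 level was 4.71 times the local level at Zic2 (3.75 to 5.85, 82 reads), 4.57 times at Neurog2 (3.39 to 6.02, 50 reads), 3.14 times at Neurod1 (2.15 to 4.44, 32 reads) and 3.08 times at Nes (2.43 to 3.85, 76 reads). These 4 genes ranked higher than 97.7%, 97.3%, 89.7% and 89.0% of TSSs in this window. The Nsl1 level in the same window was 1.68 at Zic2 and 1.74 at Neurog2, and 0.993 and 0.893 at Neurod1 and Nes. At all 4 genes the Msl1 interval lay above 2. The other 5 members had Msl1 levels between 1.58 (Mtap2) and 2.07 (Olig2) there, and the median was 2.07 over the 9 genes, above that of all TSSs at 1.5. For Nsl1 it was 1.29 over the 9 genes and 1.15 over all TSSs. From 2000 to 500 bases upstream the median Msl1 level was 1.93 over the 9 genes, above that of all TSSs at 1.10. Neurod1 had the highest, 2.55. At Pax6 (2.15) and Tubb3 (2.05) the upstream level was above the downstream one, 1.98 and 1.65, with overlapping intervals. At the other members it was below the downstream level, and lowest at Nes, 0.810.

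Set against the reads at the TSS itself, the downstream Msl1 level was 1.15 times the level within 500 bases in the median of the 9 genes, where the median of all TSSs was 0.824. The single values ran from 0.733 at Tubb3 to 1.47 at Mtap2, where 5 reads lay at the TSS and the value became 7.56 with the local level subtracted. Every 1 of the 9 Msl1 intervals included 1, so that for no single member was the downstream level distinguishable from that at the TSS at this depth. For Nsl1 the median was 1.00 over the 9 genes and 0.650 over all TSSs. Mtap2, at 0.275 (0.0962 to 0.697), and Neurod1, at 0.476 (0.228 to 0.969), had a lower Nsl1 level downstream than at the TSS, and Otx2, at 2.38 (1.00 to 6.52), a higher one, from 7 reads at the TSS. At its most upstream TSS the Otx2 ratio was 1.33, and with the window from 1000 to 2000 bases 1.71. At the upstream start of Mtap2 Nsl1 had a ratio of 0.970 and Msl1 one of 0.4, so that its values hold for the internal start only.

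The extent of the signal was read in the 20 bins of 500 bases within 5 kb of the TSS. Between 4 and 14 Msl1 bins per gene reached 2 times the local level (median 7 over the 9 genes, 3 over all TSSs), but between 1 and 3 Nsl1 bins did (median 1 over the 9 genes, 2 over all TSSs). A bin reached this level with few reads where the local level was low. That level corresponded to 2.32 Msl1 reads per bin at Mtap2, 3.39 at Neurod1 and 8.23 at Nes. The Mtap2 bins counted held 5 or 6 Msl1 reads, and their intervals included 1. Some of those at Neurod1 held 7 or 8 reads, with intervals starting at 0.829 and 1.02. Neurod1 had the most Msl1 bins, 14 of 20, more than 99.7% of TSSs. Its longest unbroken run covered 5000 bases, from 1000 before to 4000 after the TSS, and thus nearly the whole gene of 4231 bases. The run at Zic2 covered 4500 bases from 1000 before to 3500 after the TSS, that at Nes the first 3000 bases of the gene and that at Neurog2 the first 2500 bases. In Neurog2, a gene of 2496 bases with 2 exons, the Msl1 run ended where the gene ends. The 1000 bases after the end had 0.548 times the local level for Msl1 (0.149 to 1.40). For Nsl1 they had 0.209 times (0.0253 to 0.755, 2 reads), so that both libraries held few reads there. Tubb3 had a shorter run of 1500 bases, Olig2 of 1000 bases and Mtap2 of 500 bases. The longest runs of Pax6 and Otx2 lay inside the gene and reached the edge of the 5 kb window. Followed beyond it, that of Pax6 covered 3000 bases, from 3500 to 6500 after the TSS, as long as the run at Nes, and that of Otx2 covered 1500 bases, from 4000 to 5500.

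The place of the highest bin also differed between members. For Neurog2 and Zic2 the highest Msl1 bin was the first 500 bases, in exon 1, at 6.03 (3.78 to 9.13, 22 reads) and 4.83 (3.21 to 6.98, 28 reads, with the same count in the next 2 bins of Zic2), and for Nes it was also in exon 1, at 4.01 (2.76 to 5.63, 33 reads). At Neurod1 it lay 2000 to 2500 bases upstream, at 4.42 (2.47 to 7.29, 15 reads), and at Olig2 4000 to 4500 bases upstream, at 3.22 (1.8 to 5.31, 15 reads), with the same count 3000 to 3500 bases upstream. Neurod1 was also the member with the highest Nsl1 bin, 3.77 (2.27 to 5.89, 19 reads), which lay in exon 2, 2000 to 2500 bases after the TSS, inside the long Msl1 run. For Pax6 and Tubb3 the highest Msl1 bins lay in intron 1, at 3.14 (1.86 to 4.97, 18 reads) and 3.31 (2.07 to 5.0, 22 reads). These bins were picked as the highest of 20 and are given as a description.

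**Figure D4:**
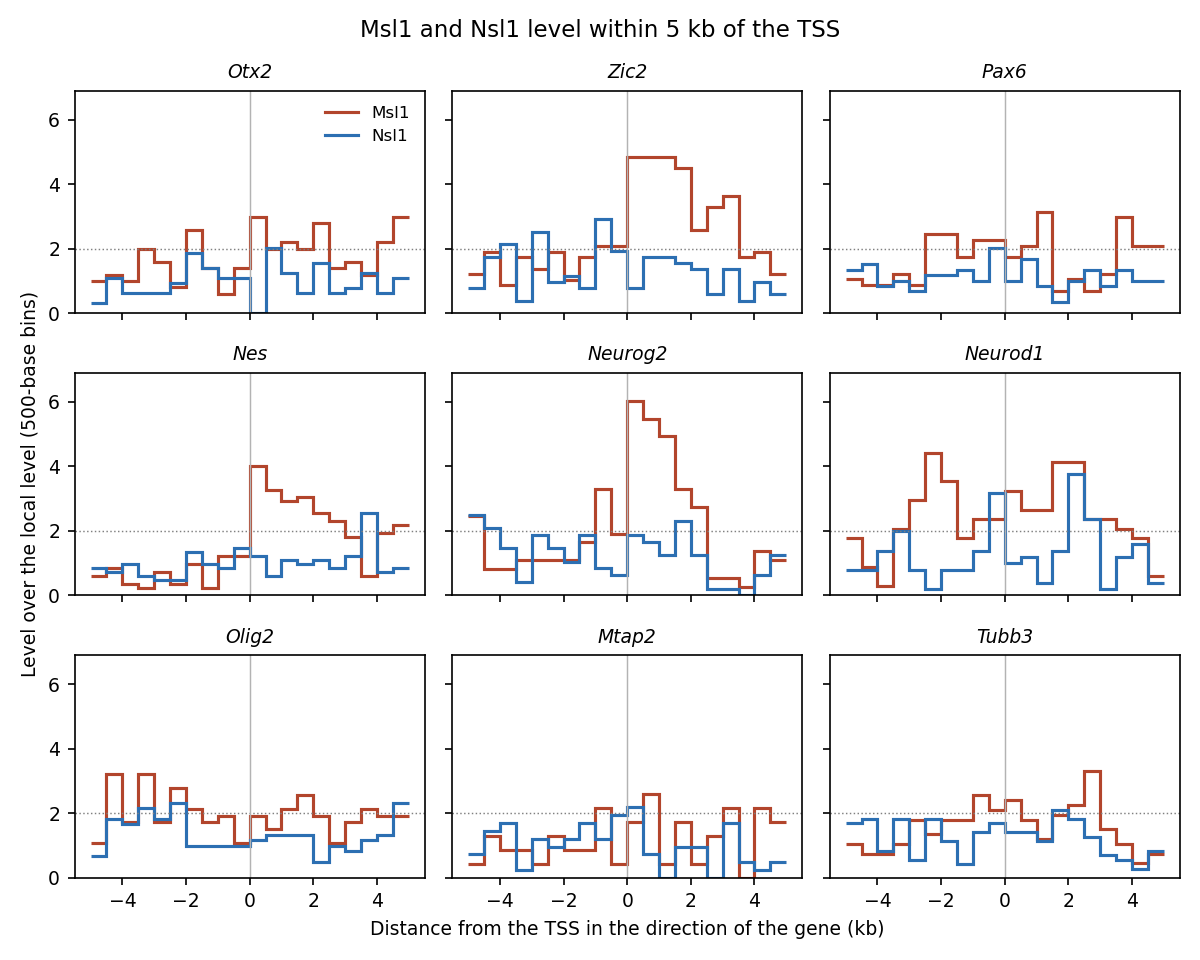
Level over the local level (vertical axis, a ratio without unit) in 500-base bins against the distance from the TSS in kb, in the direction of the gene, for the Msl1 library (red) and the Nsl1 library (blue) at each of the 9 genes; the dotted line marks 2. Msl1 stays above the line for the first 2500 to 4000 bases of Neurog2, Nes, Zic2 and Neurod1, and crosses it in shorter stretches or single bins of the window at the other 5 genes.

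Along the whole body, counted from 2 kb after the TSS to the end of the transcript in the 5 members of at least 5 kb, Otx2 stood out. Its body had an Msl1 level of 2.38 (2.04 to 2.75, 175 reads) and an Nsl1 level of 1.1 (0.902 to 1.33, 105 reads). The level was above that of most genes, since 90% of the 16245 genes of this length lay below 1.43 for Msl1. Pax6 also passed that value, with 1.47 (1.35 to 1.60, 545 reads) for Msl1 beside 1.06 (0.964 to 1.17, 409 reads) for Nsl1, and in its first part, up to the middle of the body, the Msl1 level was 1.67 (1.49 to 1.87), against 1.28 (1.12 to 1.45) in its second part. In Pax6 and Otx2 the body includes the further TSSs described above. Nes had 1.28 (1.09 to 1.5) and Tubb3 1.27 (1.07 to 1.49) for Msl1, with Nsl1 levels of 1.02 and 0.870. The Msl1 level of Nes came from the part next to the start, and fell to 0.850 when the body was counted from 5 kb. Mtap2, whose body of 115470 bases is the longest, had 1.23 (1.14 to 1.33) for Msl1 and 1.19 (1.12 to 1.26) for Nsl1, a difference within the intervals. The medians over all genes were 1.05 for Msl1 and 0.994 for Nsl1. Each body lies partly inside the stretch that gives its own local level, which pulls long genes towards 1.

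The reads of the 2 libraries within 2 kb of the TSS were also compared directly. The number of Msl1 reads per distinct Msl1 read was divided by the same for Nsl1, and TSSs with fewer than 100 reads, summed over the libraries, were left out. The ratio was 2.95 at Zic2 (2.19 to 4.01, 150 against 65 reads), 2.54 at Nes (1.89 to 3.43, 139 against 70), 2.35 at Neurog2 (1.67 to 3.32, 101 against 55) and 2.14 at Pax6 (1.52 to 3.04, 94 against 56). Thus 4 of the 8 members with enough reads reached 2, where 13.3% of 14631 TSSs did, and none was at or below 0.5, where 1.44% of TSSs were. Neurod1 (1.93), Tubb3 (1.75), Olig2 (1.63) and Otx2 (1.62) were lower, and the interval of each of these 4 still lay above 1. Mtap2, with 66 reads, was under the minimum and had a ratio of 0.779 (0.454 to 1.31), which turned to 1.08 when scaled to the local level. The median over the 8 members was 2.04 and that over all TSSs 1.28, so that the typical TSS was also richer in Msl1 than in Nsl1. Scaled to each library's local level, 3 members reached 2, Neurog2 (2.41), Neurod1 (2.24) and Zic2 (2.05), while Nes at 1.98 and Pax6 at 1.75 did not. Without this scaling, the ratio within 500 bases was 4.01 at Otx2 (22 against 7 reads), 1.16 at Neurod1 (19 against 21) and 0.376 at Mtap2 (5 against 17). None of these windows reached the minimum of 100 reads. At the upstream start Mtap2 had an unscaled ratio of 1.44 within 2 kb.

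Over the same 2 kb the Msl1 and Nsl1 levels, each relative to its own local level, had intervals that did not overlap at 6 of the 9 genes, Neurog2, Zic2, Neurod1, Nes, Pax6 and, by a narrow margin, Otx2. The Msl1 interval was the higher in each, as at 15.1% of all TSSs. Within 500 bases this held for 3 genes, Neurog2, Zic2 and Otx2 (not at the most upstream Otx2 TSS), and for 6.23% of all TSSs. Msl1 was at least 2 times the local level at 5 of the 9 genes (29.3% of all TSSs): 3.46 at Neurog2 (2.82 to 4.20), 3.23 at Zic2 (2.74 to 3.79), 2.84 at Neurod1 (2.24 to 3.54), 2.11 at Nes (1.78 to 2.49) and 2.05 at Pax6 (1.66 to 2.51). Nsl1 reached 2 at 0 of the 9 (16.8% of all TSSs), with its highest value of 1.58 (1.22 to 2.01) at Zic2 and its lowest of 1.07 (0.831 to 1.35) at Nes. Otx2 had an Msl1 level of 1.89 (1.49 to 2.37) and an Nsl1 level of 1.16 (0.883 to 1.49). At Tubb3, Olig2 and Mtap2 the intervals overlapped, with Msl1 levels of 1.95 (1.60 to 2.37), 1.88 (1.46 to 2.37) and 1.35 (0.871 to 1.99).

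The starts ranged from CpG-rich to CpG-poor. Within 500 bases of the TSS the ratio of observed to expected CG dinucleotides, a measure of how far a sequence has kept its CpGs, was 0.920 at Zic2, 0.854 at Neurog2, 0.746 at Nes, 0.742 at Olig2, 0.681 at Neurod1, 0.626 at Otx2, 0.601 at Tubb3, 0.566 at Pax6 and 0.375 at the internal start of Mtap2. The median of all TSSs was 0.554, so that only Mtap2 lay below it. Zic2 and Neurog2, with the highest values, also had the highest Msl1 ratios, and Mtap2 the lowest of both, while Olig2 had a high CpG value with a low Msl1 ratio. Across all TSSs the CpG value and the ratio rose together in both libraries, with Spearman's rho of 0.657 for Msl1 (22181 TSSs) and 0.555 for Nsl1 (22194 TSSs). TSSs of 1 library share its depth and the preference of sequencing for base composition, and this is given as a description. Among the 10312 TSSs with a CpG value of at least 0.6 the Msl1 library had a median ratio of 2.81 and the Nsl1 library one of 2.67. The 9 genes, at 2.25 and 1.36, lay below these TSSs in both libraries, by more for Nsl1 than for Msl1. The sets are not alike, because the 9 include Pax6 and Mtap2, whose CpG values are under 0.6. The Msl1 ratios of Pax6 and Mtap2, 2.01 and 1.08, lay below the Msl1 median of the 9. Their Nsl1 ratios, 1.51 and 2.06, lay above the Nsl1 median. Of these CpG-rich TSSs 76.4% were enriched for Msl1 and 66.5% for Nsl1. The 7 members among them, all but Pax6 and Mtap2, were enriched for Msl1 at 6 and for Nsl1 at 1. The letters TATAAA, on either strand from 250 bases before to 50 bases after the TSS, were found around the TSS with the longest coding sequence at Olig2 and at no other member, and at 13.4% of all such TSSs. The stretch printed for Otx2, before its most upstream TSS, also holds them.

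A wider list of 48 neural genes, which holds none of the 9, was enriched for Msl1 at about the share of all TSSs and for Nsl1 at a lower share. Msl1 was enriched at 24 of 48, beside 45.8% of all TSSs, and Nsl1 at 5 of 48 (10.4%), beside 41.2%. Msl1 without Nsl1 was found at 20 of them, beside 15.5% of all TSSs. Its median ratios were 2.0 in the Msl1 and 1.09 in the Nsl1 library, and the median number of Msl1 bins within 5 kb was 6.5, beside 3 over all TSSs. By role, Msl1 was enriched at 5 of 8 neuroepithelium factors, 3 of 8 proneural basic helix-loop-helix factors, 11 of 20 patterning factors and 5 of 12 genes of progenitor, neuron and glia products. Nsl1 was enriched at 0 of 8, 1 of 8, 2 of 20 and 2 of 12 of them.

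The highest Msl1 ratios of the list were at Sox3, a neuroepithelial factor, with 5.82 (3.65 to 8.82, 22 reads), at Hes5, a Notch target of neural progenitors, with 5.02 (3.77 to 6.54, 54 reads), and at Sox11, a factor of young neurons, with 4.57 (3.06 to 6.56, 29 reads). Nsl1 was low at the first pair, with 0.410 (0.0497 to 1.48, 2 reads) at Sox3, the lowest of the list, and 0.851 at Hes5. The lowest Msl1 ratio was 0.608 (0.304 to 1.09, 11 reads) at Mapt, which encodes the axonal microtubule protein tau. It was followed by 0.702 (0.258 to 1.53, 6 reads) at Zic1, a relative of Zic2. En2, a midbrain and hindbrain factor, had 0.784 (0.359 to 1.49, 9 reads). At Zic1 and En2 the low values held for the window at the TSS only. In the downstream window used above, the Msl1 level was 1.95 at Zic1 and 3.25 at En2, but 0.443 at Mapt. The Msl1 bins that reached 2 times the local level numbered 7 at Zic1, 6 at En2 and 0 at Mapt. The highest Nsl1 ratios were 2.57 at Dlx2, a factor of forebrain interneurons, 2.54 at Mtap1b, another microtubule-associated protein, and 2.36 at Olig1, which lies 44219 bases after Olig2. After Sox3 the lowest Nsl1 ratios were 0.659 at Gap43, a protein of growing axons, and 0.682 at Ncam1, a neural cell adhesion molecule.

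Relatives and neighbours of the members were also in this list. Zic5, which starts 9758 bases from Zic2 on the opposite strand, had an Msl1 ratio of 2.66 (1.85 to 3.70) and an Nsl1 ratio of 1.03, much as Zic2 had. Olig1 had an Msl1 ratio of 3.17 (2.17 to 4.47), where Olig2 had 1.5 (0.821 to 2.52), and the intervals overlapped. Sox1 was not analysed here.

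Nsl1 ratios were also low at regulators of other lineages and at pluripotency genes. Of all TSSs, 45.8% were enriched for Msl1 and 41.2% for Nsl1, with median ratios of 1.84 and 1.70. Of 12 regulators of mesoderm, endoderm and trophoblast, Msl1 was enriched at 8 and Nsl1 at 1, with median ratios of 2.63 and 1.20. Of 12 pluripotency genes, Msl1 was enriched at 10 and Nsl1 at 2, with median ratios of 2.49 and 1.45. The downstream Msl1 level, from 500 to 2000 bases, was 4.77 times the local level in the median pluripotency gene, 2.40 in the median gene of the other lineages and 2.07 in the median of the 9 neural genes. The median Msl1 to Nsl1 ratio within 2 kb was 2.60 over 11 pluripotency genes and 1.92 over the 12 genes of the other lineages. It was 2.04 over 8 of the 9 neural genes. Mtap2, at 0.779, was left out because it was under the minimum number of reads. Without that minimum the median of all 9 neural genes was 1.93, close to that of the other lineages. The neural genes were thus not clearly above the other lineages in this ratio. No test of these differences was made.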

How the data were processed

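ChIP-seq libraries of Msl1 and Nsl1 from wild type mESCs were compared, 1 of each. Reads had been aligned to mm9 by the authors, whose deposited files give each read's place and strand; the submitters' processing notes name CASAVA 1.8.2 and Bowtie 0.12.7. A score, 255 throughout the deposited files, carries no information and was not used. The Msl1 library had 23888517 lines of 50 bases and the Nsl1 library 26084098 lines of 36 bases. Repeated positions had been kept, and 1 read per position and strand was used here, which left 19483142 Msl1 reads (81.7% of the nuclear reads) and 24883001 Nsl1 reads (95.4%). A member's window holds few reads at this depth, from 5 to 43, which sets the width of the intervals. Reads were moved to the fragment middle, with fragment lengths of 210 bases for Msl1 and 135 for Nsl1 from the strand cross-correlation. Genes were taken from GENCODE vM1 (mm9).

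Intervals are exact Poisson for levels and exact binomial for ratios of 2 counts, at 95%. The Input of another study was not used here. Mitochondrial reads were left out. The genes named were the 9 members at every annotated TSS and, of the wider list, a few set by name (of these Hes5 and Zic5 are given, and the others are not reported here) and the 3 genes with the highest and the 3 with the lowest ratio in each library; Olig1 was also set beside Olig2 after its values were seen. The members and lists were chosen with earlier results of these data known. Counting was done with scipy 1.17.1, pandas 2.3.3 and numpy 2.4.6 in Python 3.11.15, tested on simulated data, and plots were drawn with matplotlib 3.10.9.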

Additional observations from a re-analysis of the deposited data

How the results depend on the processing

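No paired analysis was possible because there is 1 library per antibody. The ratios at the TSS, the Msl1 to Nsl1 ratios and the downstream ratios of the 9 genes were recomputed with all reads, other windows, other local levels, another shift and the most upstream TSS, as far as each applies, and the gene bodies with all reads, another local level and another start; bins, runs, TSS groups and the other gene lists were not. The number of members enriched for Msl1 stayed between 5 and 7 of 9 under the 8 alternatives, where the share of all TSSs ran from 42.8% to 56.8% (45.5% with all reads kept, which gave the 5). Zic2, Neurog2, Neurod1, Nes and Tubb3 had an Msl1 ratio of at least 2 under all 8, Pax6 under 7 and Otx2 under 4. The number enriched for Nsl1, 2 of 9, was 1 with all reads kept, 0 within 1000 bases, 1 with the local level from 10 to 100 kb, 0 with a shift of 100 bases, 1 with no shift, 1 at the most upstream TSS and 3 with the level of the whole genome, where the share of all TSSs ran from 31.8% within 1000 bases to 51.1% with the whole genome; Neurod1 was enriched for Nsl1 under 4 alternatives and Mtap2 under 3. Scaled to the local level, 3 members in place of 4 had an Msl1 to Nsl1 ratio of at least 2 within 2 kb, beside 8.35% of all TSSs. With the most upstream TSS the Msl1 ratio of Mtap2 was 4.85. With the body counted from 5 kb the Msl1 level of Nes was 0.850, below the local level; 2 kb to 5 kb were the only bases removed. Within 500 bases no member reached 100 reads, so the Msl1 to Nsl1 ratio there has a value only without that minimum, an alternative chosen after seeing the data, with 4 members at 2 or more, beside 13.7% of all TSSs. With the local level subtracted, the downstream Nsl1 ratio could not be formed at 5 members, that of Olig2 moved from 1.23 to 4.03, and the downstream Msl1 ratio of Mtap2 moved from 1.47 to 7.56. All recomputed medians stayed inside the counting interval of the member at the reported median, or of the middle pair of members for the Msl1 to Nsl1 ratio. Such an interval is that of single members and not of a median, and it is wide. For the Msl1 median of 2.25 it was that of Tubb3, 1.52 to 3.22. Of the recomputed values of single members 295 stayed inside the counting interval of the reported value and 17 left it, in addition to the Nes body. Some of the 295 could not differ from the reported value. Without the minimum of 100 reads each member keeps its Msl1 to Nsl1 ratio. At several members, among them Nes, Pax6 and Neurog2, the most upstream TSS of a coding transcript is the reported one. Differences in ratio smaller than these intervals were not detectable at this depth.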
